A study of Homo sapiens with 16 samples.

Results

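The genes described here are 10 negative feedback regulators and transcriptional outputs of the RAS-ERK mitogen-activated protein kinase (MAPK) pathway. They are the sprouty genes SPRY1, SPRY2 and SPRY4, the sprouty-related genes SPRED1 and SPRED2, the phosphatase genes DUSP4, DUSP5 and DUSP6, the transcription factor gene ETV5, and PHLDA1. They were taken by symbol from a table of 60669 genes, and all 10 passed the filter on low counts that left 16555 genes for testing. The cells were Molm13 (MOLM-13), a single human acute myeloid leukaemia line with an MLL fusion and an activated FLT3 receptor. RNA was taken after 4 days in 4 groups of 4 libraries each: DMSO alone at 0.005%, an EZH2 inhibitor at 1 µM (EZH2i), a PRMT5 inhibitor at 1 µM (PRMT5i), and the combination of both. The labels name neither compound and do not say whether replicates were separate cultures, so p-values measure the spread between these libraries, which may be technical.

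Growth factor receptors such as FLT3 activate RAS, which passes the signal through RAF and MEK kinases to ERK. ERK then induces its own brakes: sprouty and SPRED proteins act on RAS activation upstream, and the dual-specificity phosphatases of this group remove the activating phosphates from ERK. The transcripts of these brakes, with ETV5 and PHLDA1, are widely read as an output of the pathway. EZH2 methylates histone H3 within the polycomb repressive complex PRC2, which gathers at CpG-rich promoters, and PRMT5 methylates arginines of histones and splicing factors.

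Promoter sequence is shown for the 5 members that were higher under EZH2i than under DMSO, because CpG-rich promoters are the class on which polycomb complexes act. Each window runs from 250 bases before to 50 bases after a transcription start given by RefSeq on GRCh38.p14, is written 5′ to 3′ along the gene, and has every CpG in capitals. Where a gene had several windows, the one with the most CpGs is printed.
SPRY1 (chr4:123398136-123398435, plus strand): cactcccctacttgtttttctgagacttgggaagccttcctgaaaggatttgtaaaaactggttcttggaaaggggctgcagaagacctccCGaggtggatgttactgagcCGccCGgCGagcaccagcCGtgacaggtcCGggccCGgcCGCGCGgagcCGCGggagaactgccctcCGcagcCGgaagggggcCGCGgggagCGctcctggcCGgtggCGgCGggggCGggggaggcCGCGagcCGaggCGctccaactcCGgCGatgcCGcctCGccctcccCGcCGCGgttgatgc
SPRY2 (chr13:80341077-80341376, minus strand): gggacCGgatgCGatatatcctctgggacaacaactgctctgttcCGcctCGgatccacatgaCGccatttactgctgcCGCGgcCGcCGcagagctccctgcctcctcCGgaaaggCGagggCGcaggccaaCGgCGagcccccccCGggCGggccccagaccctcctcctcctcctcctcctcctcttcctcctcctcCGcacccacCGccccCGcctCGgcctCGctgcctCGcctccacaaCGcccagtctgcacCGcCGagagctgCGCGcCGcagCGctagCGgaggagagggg
SPRED2 (chr2:65432550-65432849, minus strand): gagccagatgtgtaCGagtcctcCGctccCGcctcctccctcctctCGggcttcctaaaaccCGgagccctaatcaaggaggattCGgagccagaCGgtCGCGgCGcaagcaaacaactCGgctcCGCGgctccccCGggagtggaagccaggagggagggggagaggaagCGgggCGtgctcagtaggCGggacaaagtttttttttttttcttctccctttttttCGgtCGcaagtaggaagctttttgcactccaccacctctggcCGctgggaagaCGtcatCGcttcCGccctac
DUSP6 (chr12:89352452-89352751, minus strand): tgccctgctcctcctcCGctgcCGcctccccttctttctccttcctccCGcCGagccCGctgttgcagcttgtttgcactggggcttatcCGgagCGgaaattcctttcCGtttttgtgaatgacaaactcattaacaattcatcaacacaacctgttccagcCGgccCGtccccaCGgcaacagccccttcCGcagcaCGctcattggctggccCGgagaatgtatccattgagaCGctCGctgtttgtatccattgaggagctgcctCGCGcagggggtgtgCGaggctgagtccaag
PHLDA1 (chr12:76031727-76032026, minus strand): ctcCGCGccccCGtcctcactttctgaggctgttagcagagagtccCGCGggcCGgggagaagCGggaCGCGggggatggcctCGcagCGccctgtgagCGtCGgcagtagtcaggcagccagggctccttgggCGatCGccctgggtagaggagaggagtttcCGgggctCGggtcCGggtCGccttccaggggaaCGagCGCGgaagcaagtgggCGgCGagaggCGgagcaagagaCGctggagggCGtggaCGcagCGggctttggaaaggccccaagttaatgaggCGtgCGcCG

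RefSeq windows were matched for 7 of the 10 members, 11 windows in all. DUSP4, DUSP5 and ETV5 were not matched. The printed windows hold 32 CpGs for SPRY1, 30 for SPRY2, 23 for SPRED2, 19 for DUSP6 and 32 for PHLDA1, against a median of 14 over 35116 windows of all genes. SPRY4 and SPRED1, which were not higher under EZH2i, have windows of 26 and 32 CpGs. Of all windows, 81.1% held fewer CpGs than those of SPRY1, PHLDA1 and SPRED1, and 77.6% fewer than that of SPRY2. The share was 69.9% for SPRY4, 64.2% for SPRED2 and 57.1% for DUSP6, the last 2 being nearer the middle. For genes with several starts the richest window was picked, whereas the median of 14 is over windows not picked in this way. Counts above that median were thus found in members of both kinds. No binding or methylation was measured here. The second start of SPRY1 has 12 CpGs, the other 2 starts of SPRY2 have 15 and 6, and the second start of SPRED2 has 4.

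Short motifs of factors that act at ERK-responsive genes were searched on both strands of all windows. Of the octamers of the repressor CIC, only the forms TGAATGAA and TGAATGGA were searched. They were in 2.63% of all windows and in 0 of the 11 windows of members. Other forms of the octamer were not searched, so the 0 holds for these letters only. It does not show that the members lack the octamer. The window of DUSP6 printed above holds tccattga at more than 1 place. Read on the other strand, tccattga differs from TGAATGGA by 1 letter and is among the forms not searched. The ETS motif CCGGAAG was in 10.3% of all windows and in 1 window of members, that of SPRY1 printed above. The AP-1 motif TGANTCA was in 7.71% of all windows and in 1 of the members' windows, the second start of SPRED2. The cyclic AMP response element TGACGTCA (1.85% of all windows) and the CArG box of SRF (1.29%) were in none of them. A match describes the letters of a window and not a bound site.

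Libraries held 31.1 to 52.9 M expected counts (M for mega). Levels are given as CPM (counts of a gene scaled to a common library size), with library sizes scaled by the trimmed mean of M values. A call is an adjusted p under 0.05 over all 16555 genes in edgeR's quasi-likelihood test. DMSO replicate 1 had the lowest scaling factor, 0.861, against 0.959 to 1.07 in the other 15 libraries. All 10 myeloid markers were expressed enough to test, with summed levels of 1713 to 2442 CPM for DMSO, 1660 to 1870 for EZH2i, 2691 to 3023 for PRMT5i and 2330 to 2538 for both inhibitors; CD33 averaged 81.8 CPM and the monocyte marker CD14 0.363 CPM under DMSO. Of the erythroid markers, the globin gene HBG1 had 0 counts in all 16 libraries. T cell markers had 1 of 3 tested and 0 counts of CD2. Their sum, of which CD3D averaged 4.19 CPM for DMSO, was 3.55 to 5.52 CPM for DMSO, 6.66 to 7.67 for EZH2i, 1.80 to 2.06 for PRMT5i and 2.83 to 4.46 for both inhibitors. B cell markers had 2 of 3 tested and a sum of 0.360 to 0.651, 0.630 to 0.917, 0.423 to 0.933 and 0.520 to 0.823 CPM in the order DMSO, EZH2i, PRMT5i and combination, and epithelial or fibroblast markers 3 of 6 tested and 1.70 to 2.96, 3.27 to 6.93, 3.30 to 3.62 and 4.06 to 6.34 CPM. MS4A1 and KRT19 were at 0 in the 4 DMSO libraries. The part of these markers in the results below was not tested. In bulk RNA, fewer cells that express a gene and less RNA per cell cannot be told apart.

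Per kilobase of merged exons, the scale on which levels of different genes can be compared, ETV5 was the most abundant member under DMSO at a mean of 8.88 CPM per kb. DUSP6 (3.07), DUSP5 (2.95), SPRED1 (2.89), SPRY2 (2.59), SPRED2 (2.24) and SPRY1 (1.57) formed a middle range on that scale. PHLDA1 had 0.811, SPRY4 0.117 and DUSP4 0.0227 CPM per kb. ETV5 had the highest level per kilobase in each of the 4 groups. The lowest was that of DUSP4 except under PRMT5i, where SPRY4 was at 0.0688 and DUSP4 at 0.0715 CPM per kb.

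**Figure D1:**
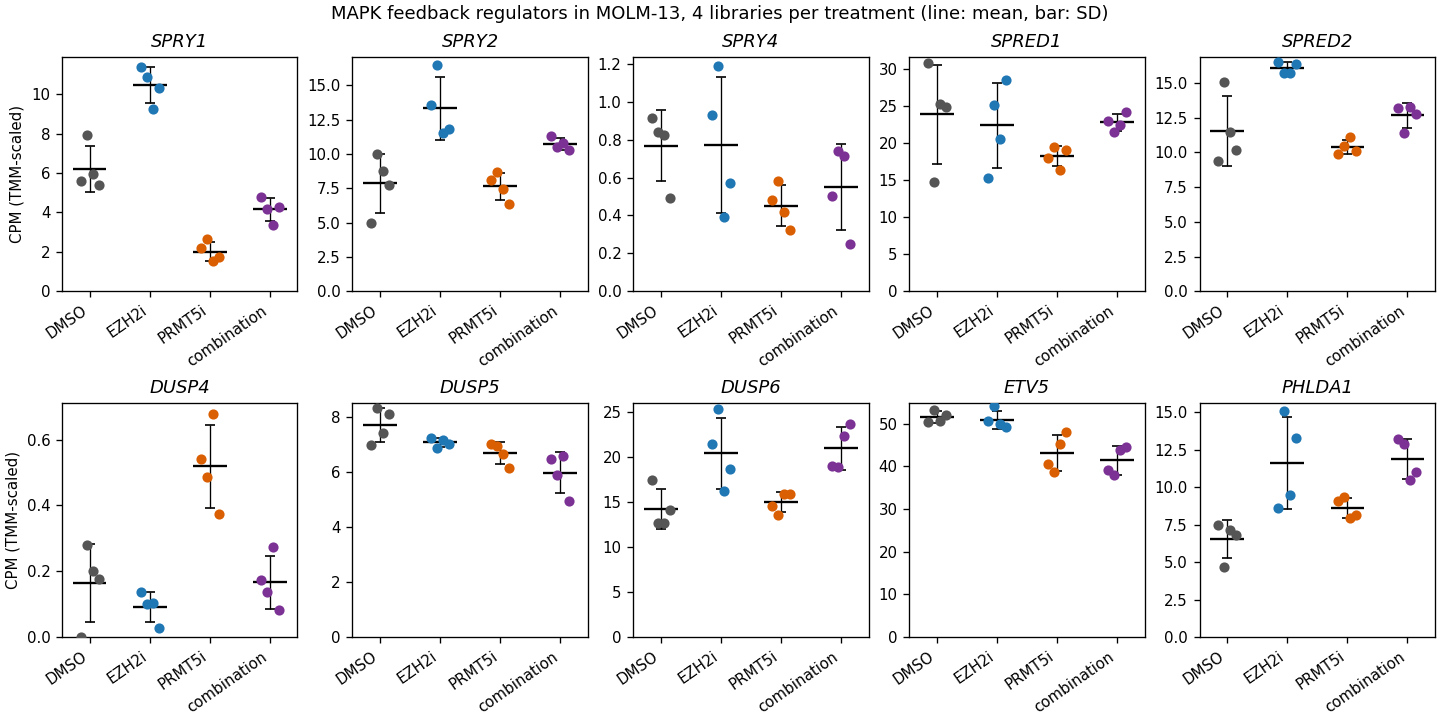
CPM of each member (y axes, from 0) in the 16 libraries by treatment (x axes); points are libraries in the order of replicates 1 to 4, lines are means and bars are SD over 4 libraries. SPRY1 separates all 4 treatments, from 1.52 to 2.63 CPM under PRMT5i to 9.25 to 11.4 CPM under EZH2i, while ETV5 stays between 38.0 and 54.0 CPM.

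With EZH2i alone, 5 of the 10 members rose and 0 fell in edgeR: SPRY1, SPRY2, SPRED2, DUSP6 and PHLDA1. Over all genes 7.6% were called in this comparison, 4.11% higher and 3.49% lower. That background of 1259 genes became 4591 without DMSO replicate 2, with the members' count still 5, and 499 without DMSO replicate 4, with a members' count of 3. It was 737 without DMSO replicate 3, 758 without EZH2i replicate 1 and 728 without EZH2i replicate 2. The libraries of both groups did not overlap for 4 members, against 10.6% of all genes. The median log2 fold change was 0.25 over the members and -0.01 over all genes. At an unadjusted p under 0.05 the same 5 were higher and 0 lower, and DESeq2 likewise called 5 higher and 0 lower. DUSP4 passed the filter on low counts only through the PRMT5i libraries, where it is high, so a test of it against that group is conditioned on its level there, and its values in such comparisons are given as a description. With PRMT5i alone, 2 of the other 9 members fell, SPRY1 and ETV5, and the other 7 did not pass, where 35.3% of all genes were called (17.1% higher, 18.3% lower). Of these 9 members, groups did not overlap for SPRY1, ETV5 and PHLDA1, against 33.8% of all genes.

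In the combination against DMSO, 3 members rose (SPRY2, DUSP6 and PHLDA1) and 3 fell (SPRY1, DUSP5 and ETV5), where 36.2% of all genes were called (17.6% higher, 18.5% lower). Groups did not overlap for 6 members, against 33.1% of all genes. Scaling by total counts in place of trimmed means shifts the median of all genes in this comparison from 0.00 to 0.13 on the log2 scale, and the 3 lower calls are then lost while the 3 higher calls stay. When EZH2i was added to PRMT5i, 1 member passed, SPRY1, which rose, where 4.16% of all genes were called (2.91% higher, 1.24% lower). These 688 genes became 263 without PRMT5i replicate 3, 327 without PRMT5i replicate 4, and 393, 373 and 438 without combination replicates 1, 2 and 4, with SPRY1 called in each. Without DMSO replicate 1, SPRY2 and DUSP6 passed as well, and the count was 2 when DMSO replicate 2, EZH2i replicate 2 or EZH2i replicate 3 was left out, with DUSP6 added. Of the 9 members other than DUSP4, the combination and PRMT5i libraries did not overlap for SPRY1, SPRY2, SPRED1, SPRED2, DUSP6 and PHLDA1. The share over all genes was 18.9%. When PRMT5i was added to EZH2i, SPRY1, SPRED2 and ETV5 fell and 0 members rose in edgeR, where 28% of all genes were called (13.4% higher, 14.6% lower). Groups did not overlap for 5 members, against 31.6% of all genes. At an unadjusted p under 0.05, 4 were lower and 0 higher, and DESeq2 called 3 lower and 0 higher. Between the single inhibitors, 5 of the 9 members other than DUSP4 were lower under PRMT5i than under EZH2i, where 35.5% of all genes were called (16.9% higher, 18.6% lower). These 5 were SPRY1 (-2.37), SPRY2 (-0.80), SPRED2 (-0.62), DUSP6 (-0.45) and ETV5 (-0.24). Groups did not overlap for the same 5 of these 9 members, against 38.4% of all genes.

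**Figure D2:**
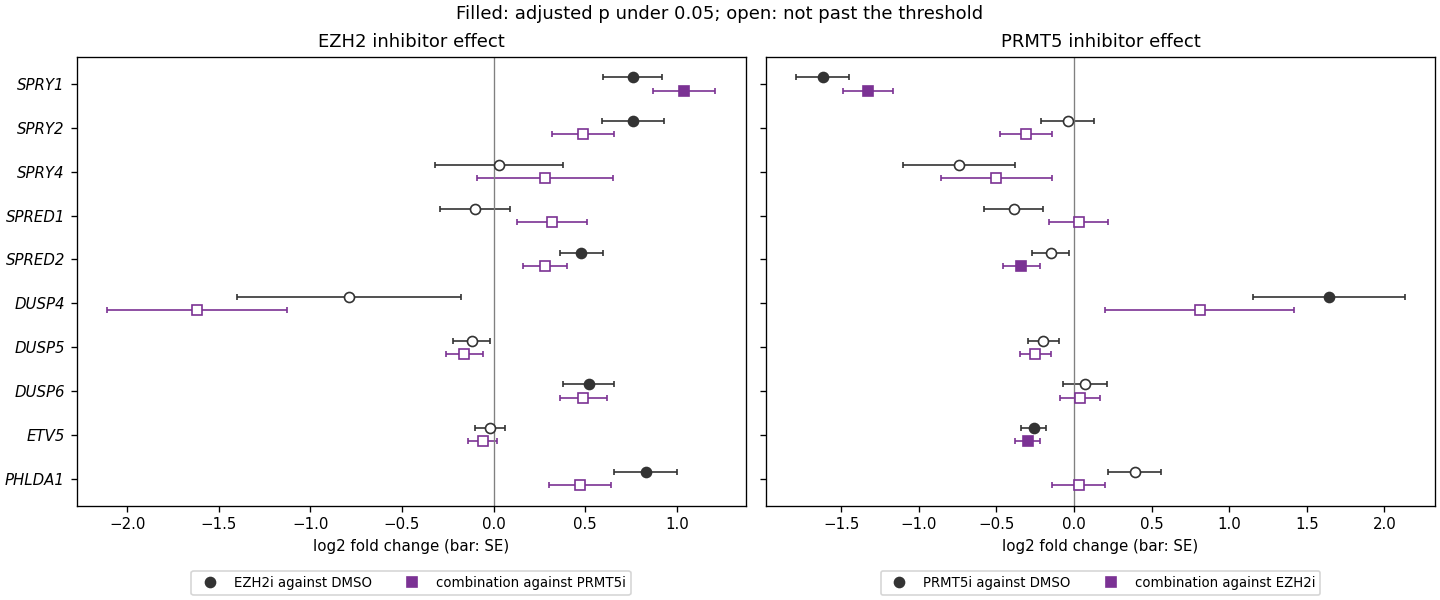
Log2 fold changes (x axes, bars are SE) of the 10 members for each inhibitor alone (circles) and added to the other inhibitor (squares), filled where the adjusted p is under 0.05, which for DUSP4 is a description. The EZH2i effect on SPRY1 is positive in both settings (0.76 and 1.04) and the PRMT5i effect on it is negative in both (-1.62 and -1.33).

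Among the sprouty genes, SPRY1 and SPRY2 had the same log2 change under EZH2i, 0.76, and under PRMT5i the change was -1.62 for SPRY1, -0.04 for SPRY2 and -0.74 for SPRY4. Sprouty proteins are membrane-associated inhibitors that act between receptor and RAF. SPRY1 (ENSG00000164056.10; GRCh38 chromosome 4, 123396795 to 123403760, plus strand, GENCODE v29) had 5.60, 7.95, 5.93 and 5.39 CPM in DMSO replicates 1 to 4 and 11.4, 10.9, 9.25 and 10.3 CPM under EZH2i. PRMT5i replicates gave 2.18, 2.63, 1.52 and 1.72 CPM and combination replicates 4.78, 4.18, 3.38 and 4.27 CPM. All 4 groups were separate from each other, in the order EZH2i, DMSO, combination, PRMT5i, and every pair of groups passed the test.

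SPRY1 averaged 6.22 ± 1.18 CPM under DMSO (mean ± SD, n = 4, as for all means below) and 2.01 ± 0.496 CPM under PRMT5i, a log2 change of -1.62 (SE 0.17, adjusted p = 1.74e-06). With EZH2i it averaged 10.5 ± 0.942 CPM, a change of 0.76 (SE 0.16, adjusted p = 0.0105). In the combination it averaged 4.15 ± 0.579 CPM, which was 2.06 times its fitted level under PRMT5i (log2 change 1.04, SE 0.17, adjusted p = 0.00291) and 0.671 times that under DMSO (-0.58, SE 0.16, adjusted p = 0.0117). Both inhibitors together thus left SPRY1 higher than under PRMT5i alone and, with trimmed-mean scaling, lower than in control cells. With total counts SPRY1 in the combination was at -0.46 against DMSO and did not pass (adjusted p = 0.0615). Without any 1 of the 16 libraries its calls under EZH2i, under PRMT5i and in the combination against PRMT5i stayed, with log2 fold changes of 0.69 to 0.89, -1.79 to -1.48 and 0.93 to 1.20.

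SPRY2 (ENSG00000136158.10; chromosome 13, 80335976 to 80340951, minus strand) was at 4.96, 9.98, 8.74 and 7.78 CPM in DMSO replicates 1 to 4 and at 13.6, 16.5, 11.5 and 11.8 CPM in the EZH2i replicates. The PRMT5i libraries had 8.14, 8.66, 7.42 and 6.36 CPM and the combination 11.3, 10.5, 10.8 and 10.3 CPM. The EZH2i and combination libraries all lay above the DMSO and PRMT5i libraries, and the latter pair of groups overlapped. EZH2i raised SPRY2 from 7.86 ± 2.13 to 13.3 ± 2.28 CPM (log2 change 0.76, SE 0.17, adjusted p = 0.0128). PRMT5i gave -0.04 (95% interval -0.40 to 0.32, adjusted p = 0.884). The difference of the combination from PRMT5i, 0.49 (SE 0.17), did not pass (adjusted p = 0.130), although the groups were separate. The call in the combination against DMSO (0.45, adjusted p = 0.0468) is lost without any 1 library except DMSO replicate 2, EZH2i replicate 2 or 4, or PRMT5i replicate 4, and without DMSO replicate 1, which had the lowest level, the change is 0.27.

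SPRY4 (ENSG00000187678.8; chromosome 5, 142310427 to 142326455, minus strand) was rare, with 9 to 59 counts per library. Its DMSO replicates 1 to 4 gave 0.915, 0.842, 0.825 and 0.493 CPM, the EZH2i replicates 0.931, 1.19, 0.393 and 0.574, the PRMT5i replicates 0.480, 0.584, 0.420 and 0.323 and the combination 0.501, 0.739, 0.714 and 0.248. The groups overlapped in every pair and none of its comparisons passed. Its change under PRMT5i was -0.74 (95% interval -1.50 to 0.02, adjusted p = 0.125), and under EZH2i 0.03 (95% interval -0.71 to 0.77). Under EZH2i, changes of either sign inside that interval are thus not excluded.

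SPRED proteins share the cysteine-rich domain of sprouty proteins and bring the RAS inactivator neurofibromin to the membrane. SPRED2 (ENSG00000198369.9; chromosome 2, 65310851 to 65432637, minus strand) was at 9.40, 15.1, 11.5 and 10.2 CPM in DMSO replicates 1 to 4 and at 16.5, 15.7, 15.7 and 16.4 CPM in the EZH2i replicates. PRMT5i replicates gave 9.91, 10.5, 11.1 and 10.1 CPM and combination replicates 13.2, 11.4, 13.3 and 12.8 CPM. The EZH2i libraries were above all others, DMSO replicate 2 was next to them, and the DMSO range covers the PRMT5i and combination libraries. SPRED2 rose under EZH2i from 11.5 ± 2.5 to 16 ± 0.421 CPM (log2 change 0.48, SE 0.12, adjusted p = 0.0203), and this did not pass after leaving out DMSO replicate 3 (adjusted p = 0.0508) or 4 (adjusted p = 0.0807). It was lower in the combination than under EZH2i alone (-0.34, SE 0.12, adjusted p = 0.0356), a call lost without any 1 of the 8 libraries of these groups, with total counts and with no filter on low counts.

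SPRED1 (ENSG00000166068.12; chromosome 15, 38252326 to 38357249, plus strand) was at 30.8, 14.7, 25.2 and 24.8 CPM in DMSO replicates 1 to 4 and at 15.3, 25.1, 20.6 and 28.5 CPM in the EZH2i replicates. PRMT5i replicates gave 18.0, 19.5, 16.4 and 19.0 CPM and combination replicates 23.0, 21.5, 22.4 and 24.2 CPM. The DMSO and EZH2i libraries were scattered and covered the other groups, whereas the combination lay above PRMT5i in all 4 libraries. None of its changes passed, with -0.39 (SE 0.19, adjusted p = 0.120) for PRMT5i against DMSO and 0.32 (SE 0.19, adjusted p = 0.459) for the combination against PRMT5i. Without DMSO replicate 2, its lowest DMSO library, PRMT5i against DMSO was -0.56 and passed (adjusted p = 0.00775). SPRED1 and SPRED2 varied in opposite directions within groups: with group means removed their log2 CPM had r = -0.67 over the 16 libraries. With group means kept it was -0.13. SPRED1 and PHLDA1 had r = 0.83 with group means removed, the highest of all pairs of members, and 0.42 with them kept. These values are descriptions over libraries that share treatments and differ in depth.

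The phosphatases remove phosphates from ERK, DUSP6 in the cytoplasm and DUSP4 and DUSP5 in the nucleus. DUSP6 (ENSG00000139318.7; chromosome 12, 89347232 to 89353271, minus strand) was at 17.4, 12.7, 12.7 and 14.1 CPM in DMSO replicates 1 to 4 and at 21.4, 25.3, 16.2 and 18.6 CPM in the EZH2i replicates. With PRMT5i it had 14.5, 13.6, 15.9 and 15.9 CPM and in the combination 19.0, 18.9, 22.3 and 23.6 CPM. The combination was above DMSO and PRMT5i in all libraries, and the lowest EZH2i library lay under the highest DMSO library. DUSP6 rose under EZH2i from 14.2 ± 2.19 to 20.4 ± 3.89 CPM (log2 change 0.52, SE 0.14, adjusted p = 0.0279), and in the combination to 21.0 ± 2.39 CPM (0.56, SE 0.14, adjusted p = 0.00395 against DMSO).

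The EZH2i call of DUSP6 is lost when DMSO replicate 3 or 4, or else replicate 1 or 2 of EZH2i, is left out, at changes of 0.40 to 0.52. The difference of the combination from PRMT5i was 0.49 (SE 0.13) and just missed the threshold (adjusted p = 0.0519), and passed on leaving out DMSO replicate 1 or 2, or EZH2i replicate 2 or 3, in DESeq2 and with total counts. PRMT5i alone gave 0.07 (95% interval -0.21 to 0.36). An antisense gene, AC024909.2, shares 40.5% of the exon bases of DUSP6, and reads from the 2 strands cannot be told apart where the strand setting is not stated. That gene was assigned 13.2 to 34.3 expected counts per library against 408 to 1257 for DUSP6.

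DUSP5 (ENSG00000138166.5; chromosome 10, 110497838 to 110511544, plus strand) changed little. Its DMSO replicates 1 to 4 gave 6.99, 8.35, 7.42 and 8.11 CPM, the EZH2i replicates 7.26, 6.89, 7.18 and 7.03, the PRMT5i replicates 7.04, 6.97, 6.65 and 6.14 and the combination 6.47, 5.89, 6.59 and 4.96. Its means were lower in that order, and of the treated groups the combination alone was below every DMSO library. Neither single inhibitor passed (-0.12 under EZH2i, adjusted p = 0.444, and -0.20 under PRMT5i, adjusted p = 0.122), while the combination against DMSO did (-0.37, SE 0.10, adjusted p = 0.00844). With total counts that change is -0.24 and does not pass.

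DUSP4 (ENSG00000120875.8; chromosome 8, 29333064 to 29350668, minus strand) was close to the limit of detection. Its DMSO replicates 1 to 4 gave 0, 9, 9 and 9 counts, the EZH2i replicates 5, 5, 4 and 1, the PRMT5i replicates 27, 25, 29 and 15 and the combination 9, 6, 10 and 3. The PRMT5i libraries stood above all others. In CPM the PRMT5i mean was 0.519 ± 0.126 and the DMSO mean 0.165 ± 0.118, a fitted log2 change of 1.64 (SE 0.49). As the gene was tested only because of its level in the PRMT5i libraries, no test is given for comparisons with that group. The combination averaged 0.167 ± 0.0806 CPM, a log2 change of 0.02 against DMSO with a wide 95% interval, -1.16 to 1.20. The fitted log2 change from PRMT5i to the combination was -1.62 (SE 0.49).

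ETV5, an ETS-family transcription factor whose gene is induced by ERK signalling, was lower in both groups that received PRMT5i, and no change passed under EZH2i. ETV5 (ENSG00000244405.7; chromosome 3, 186046308 to 186110318, minus strand) was at 50.4, 53.2, 50.5 and 51.9 CPM in DMSO replicates 1 to 4 and at 50.5, 54.0, 50.0 and 49.2 CPM in the EZH2i replicates. PRMT5i replicates gave 40.6, 38.6, 45.1 and 48.0 CPM and combination replicates 39.1, 38.0, 43.9 and 44.6 CPM. All 8 libraries under PRMT5i lay below the 8 without it. Its change under EZH2i was -0.02 (95% interval -0.19 to 0.16). PRMT5i lowered it by a small amount, from 51.5 ± 1.32 to 43.1 ± 4.27 CPM (-0.26, SE 0.08, adjusted p = 0.0245), and the combination to 41.4 ± 3.36 CPM (-0.31, SE 0.08, adjusted p = 0.00799 against DMSO). The PRMT5i call is lost without DMSO replicate 4 or PRMT5i replicate 1 or 2, with total counts, with no filter on low counts and in the fit of these groups alone. Replicates 1 and 2 were lower than 3 and 4 in both groups under PRMT5i. Within these pairs of replicate numbers the change was -0.39 and -0.14 and passed in neither.

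PHLDA1, a pleckstrin-homology-like domain protein gene induced by growth factor signalling, had the highest fitted change of the 10 members under EZH2i, within the SE of those of SPRY1 and SPRY2. PHLDA1 (ENSG00000139289.13; chromosome 12, 76025447 to 76033932, minus strand) was at 7.51, 4.71, 7.18 and 6.79 CPM in DMSO replicates 1 to 4 and at 8.62, 15.1, 9.51 and 13.3 CPM in the EZH2i replicates. PRMT5i replicates gave 9.07, 9.34, 7.93 and 8.13 CPM and combination replicates 13.2, 12.9, 10.5 and 11 CPM. Each treated group lay above all DMSO libraries, and the EZH2i libraries were the most scattered. It rose under EZH2i from 6.55 ± 1.26 to 11.6 ± 3.09 CPM (log2 change 0.83, SE 0.17, adjusted p = 0.00949) and in the combination to 11.9 ± 1.34 CPM (0.86, SE 0.17, adjusted p = 9.14e-04 against DMSO). PRMT5i alone gave 0.39 (SE 0.17), which did not pass (adjusted p = 0.0858) and passed with total counts at 0.46. The largest overlap with another gene covers 9.65% of its exon bases.

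The effect of one inhibitor was not shown to depend on the other for any member. The interaction, which is the log2 change from PRMT5i to the combination minus that from DMSO to EZH2i, passed for 0 of the 10 members in edgeR and in DESeq2, with 0 at an unadjusted p under 0.05, where 0.29% of all genes were called (0.254% higher, 0.0362% lower). The interaction includes the PRMT5i group, through whose level alone DUSP4 was tested, so for DUSP4 the result is a description. The values ran from -0.83 for DUSP4 (SE 0.82) to 0.42 for SPRED1 (95% interval -0.15 to 0.98). For SPRY1 it was 0.28 (-0.21 to 0.78), for SPRY2 -0.28 (-0.78 to 0.23), for SPRED2 -0.20 (-0.54 to 0.15), for DUSP6 -0.03 (-0.44 to 0.37) and for PHLDA1 -0.36 (-0.87 to 0.15). The intervals are wide, so that effects of the same size in both settings are not shown either. The 5 members that rose under EZH2i alone were all higher in the combination than under PRMT5i in each library, by 0.28 to 1.04 on the log2 scale. Over all genes the groups did not overlap for 18.9%. That share covers both directions and genes not picked by a rise under EZH2i, so it is not a matched background for these 5. Of these 5, SPRY1 passed, and DUSP6 (adjusted p = 0.0519), SPRY2 (0.130), PHLDA1 (0.152) and SPRED2 (0.227) did not.

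The calls under EZH2i rest on the spread shared by all 16 libraries. In a fit of the DMSO and EZH2i libraries alone, only SPRY1 of the 10 members passed (0.77, adjusted p = 0.0449), with PHLDA1 at adjusted p = 0.114, SPRY2 at 0.120, SPRED2 at 0.156 and DUSP6 at 0.181 and nearly the same fold changes. That fit called 135 of all genes, against 1259 in the fit of the 4 groups. In a fit of the PRMT5i and combination libraries alone, 6 of the 9 members other than DUSP4 passed, SPRY1, SPRY2, SPRED1, SPRED2, DUSP6 and PHLDA1, each of them higher. That fit called 2099 of all genes, against 688. Without DMSO replicate 3 or without DMSO replicate 4 the count under EZH2i was 3 (SPRY1, SPRY2 and PHLDA1). Within replicates 1 and 2 the EZH2i changes of the 5 genes were 0.72 for SPRY1, 1.01 for SPRY2, 0.39 for SPRED2, 0.63 for DUSP6 and 0.96 for PHLDA1, and none passed. Within replicates 3 and 4 they were 0.79, 0.50, 0.57, 0.38 and 0.71, and all but DUSP6 passed.

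Other genes of the pathway were taken from 4 lists. The calls of their named genes under EZH2i, given below, are all lost in the fit of the DMSO and EZH2i libraries alone, with adjusted p of 0.152 for FLT3, 0.0560 for RASAL2, 0.0528 for DUSP16, 0.0622 for CCND1, 0.0873 for EGR1 and 0.125 for IER3. In the cascade from FLT3 to ERK, 20 of 20 genes were tested. Under EZH2i 1 was higher and 2 were lower (median log2 change 0.07), where 4.11% of all genes were called higher and 3.49% lower. The receptor gene FLT3 fell from 697 ± 97.3 to 491 ± 65.3 CPM under EZH2i (log2 change -0.51, SE 0.10, adjusted p = 0.00949) and rose to 999 ± 34.6 CPM under PRMT5i (0.52, SE 0.10, adjusted p = 9.25e-04). The adaptor gene GRB2 fell under EZH2i (-0.27, SE 0.06), from 238 to 197 CPM, a call lost without DMSO replicate 4 and with total counts. Without DMSO replicate 2, 4 were higher and 3 lower. The kinase gene BRAF rose (0.31, SE 0.09, adjusted p = 0.0399), a call that holds only without DMSO replicate 2, EZH2i replicate 1 or combination replicate 2 when 1 library is left out. With PRMT5i, 4 of the 20 were higher and 2 lower (median 0.03), where 17.1% of all genes were called higher and 18.3% lower. HRAS fell (-0.47, SE 0.13) and the RAF-activating scaffold gene SHOC2 rose (0.47, SE 0.14, lost without DMSO replicate 1 or PRMT5i replicate 2). The count of higher genes was 1 without PRMT5i replicate 2, and 2 without DMSO replicate 1, 3 or 4 or PRMT5i replicate 3 or 4. In the combination against PRMT5i, GRB2 fell (-0.28, SE 0.06), a call lost with total counts and on leaving out PRMT5i replicate 2, 3 or 4 or combination replicate 2.

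Of 15 RAS GTPase-activating and other brake genes outside the 10 members, 13 were tested. Under EZH2i 6 of these rose and 0 fell in edgeR (median 0.33), where 4.11% of all genes were called higher and 3.49% lower. In DESeq2 it was 6 and 0 as well. RASAL2 rose from 26.3 ± 0.902 to 37.3 ± 2.28 CPM (log2 change 0.50, SE 0.08, adjusted p = 0.00137), RASA1, which encodes a GTPase-activating protein of RAS, from 56.0 to 80.0 CPM (0.52, SE 0.10), and the ubiquitin ligase gene CBL from 71.8 to 90.2 CPM (0.33, SE 0.08, lost without DMSO replicate 3 or 4). The count of 6 became 4 without DMSO replicate 1, 3 when DMSO replicate 3 or EZH2i replicate 2 was left out, 2 without DMSO replicate 4, 7 with 1 lower without DMSO replicate 2, 2 with no filter on low counts and 0 in the fit of these groups alone. Another gene shares 14.7% of the exon bases of RASA1. With PRMT5i, 2 of the 13 rose and 2 fell, where 17.1% of all genes were called higher and 18.3% lower. Those that rose were CBLB (1.11, SE 0.11, from 6.16 to 13.3 CPM) and RASAL2 (0.55). Among those that fell was LZTR1 (-0.78, SE 0.12), whose exons share 34.7% of their bases with another gene. RASAL2 also rose from PRMT5i to the combination (0.49, SE 0.08), from 38.4 to 54.0 CPM.

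Among 7 other MAP kinase phosphatase genes, 6 were tested, and under EZH2i DUSP16 rose from 5.31 ± 1.06 to 8.70 ± 0.364 CPM (log2 change 0.72, SE 0.12, adjusted p = 0.00217) and DUSP8 from 0.985 to 1.75 CPM (0.84, SE 0.21, adjusted p = 0.0222). Of all genes, 4.11% were called higher in that comparison. DUSP16 encodes a phosphatase of the stress kinases JNK and p38. The call of DUSP8 is lost when DMSO replicate 3 or 4, or else EZH2i replicate 1, is left out. DUSP16 rose as well from PRMT5i to the combination (0.57, SE 0.12, adjusted p = 0.00992). With PRMT5i, DUSP1, an immediate early phosphatase gene, fell from 2.27 to 1.41 CPM (log2 change -0.68, SE 0.18, adjusted p = 0.00640). The other 5 did not pass, where 35.3% of all genes were called.

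Of 20 transcription factors and other outputs of ERK, 18 were tested. Under EZH2i 3 of these rose and 2 fell (median 0.18), where 4.11% of all genes were called higher and 3.49% lower. The cyclin gene CCND1 rose from 7.55 ± 1.16 to 12.5 ± 2.24 CPM (log2 change 0.73, SE 0.14, adjusted p = 0.00630), and from PRMT5i to the combination it rose from 5.68 ± 0.352 to 12.2 ± 1.98 CPM (log2 change 1.11, SE 0.14, adjusted p = 5.03e-04). EGR1, an immediate early transcription factor gene, rose under EZH2i (0.71, SE 0.14, from 4.76 to 7.77 CPM) and fell under PRMT5i (-0.90, SE 0.15, to 2.55 CPM). IER3 fell under EZH2i (-0.64, SE 0.13), and an antisense gene shares 26.5% of its exon bases. With PRMT5i 3 rose and 5 fell (median -0.10), where 17.1% of all genes were called higher and 18.3% lower. ETV4, of the same PEA3 subfamily as ETV5, fell from 14.0 ± 1.65 to 7.13 ± 0.438 CPM (log2 change -0.97, SE 0.12, adjusted p = 5.93e-06), while ETS2 rose from 41.3 to 62.6 CPM (log2 change 0.60, SE 0.07). In the combination against PRMT5i, 1 rose and 2 fell, where 2.91% of all genes were called higher and 1.24% lower. The 2 that fell were ETS2 (-0.36, SE 0.07) and IER3 (-0.65, SE 0.14, lost without PRMT5i replicate 3). Under EZH2i, 7 were higher without DMSO replicate 2, and 1 was lower without DMSO replicate 4 or EZH2i replicate 2. Under PRMT5i it was 1 higher and 8 lower without DMSO replicate 1, and 1 higher and 4 lower without PRMT5i replicate 3 or 4.

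**Figure D3:**
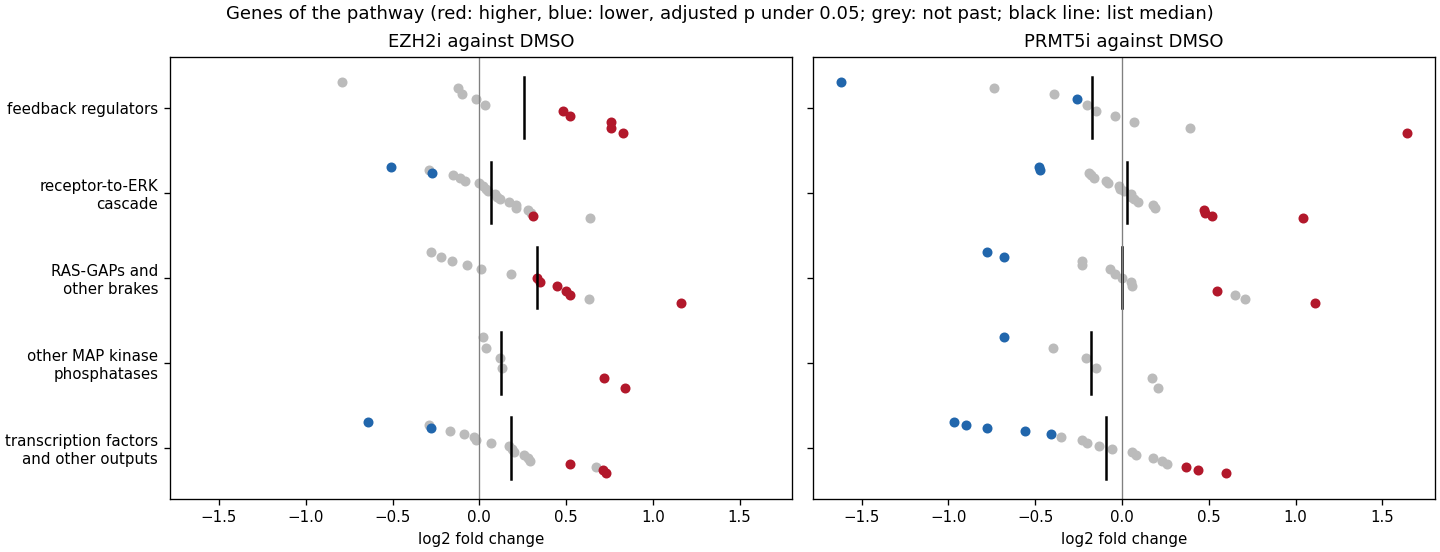
Log2 fold changes (x axes) of the tested genes of the 10 feedback regulators and 4 other lists of the pathway, under EZH2i (left) and PRMT5i (right) against DMSO; each point is a gene, red where called higher and blue where called lower, and black lines are list medians. With EZH2i 5 of 10 feedback regulators and 6 of 13 other brakes are called higher, against 4.11% of all genes. Without DMSO replicate 2, 7 of these 13 are higher and 1 lower. Under PRMT5i calls lie on both sides of 0 over all lists together, where 17.1% of all genes were called higher and 18.3% lower. The red point of DUSP4 there is a description, and the other called feedback regulators, SPRY1 and ETV5, are lower.

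For the 4 members with the smallest p for any difference among the treatments, the most similar profiles were sought among the 9918 protein-coding genes that reached a mean of 5 CPM in any treatment. Likeness was Pearson's r of log2 CPM over the 16 libraries, which share 4 treatments, and is given as a description. SPRY1 was most like HJURP (r = 0.981), which encodes a chaperone of the centromeric histone, RACGAP1 (0.978), a cytokinesis gene, and KIF4A (0.973), a chromosome-associated kinesin gene. HJURP averaged 26.8 CPM for DMSO, 33.1 for EZH2i, 11.8 for PRMT5i and 19.3 for both inhibitors, the same order of groups as SPRY1.

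SPRED2 was most like the nuclear pore gene NUP210 (0.947), the proliferation marker gene MKI67 (0.946) and RFX2 (0.945). MKI67 averaged 86.0, 163, 54.7 and 105 CPM in the order DMSO, EZH2i, PRMT5i and combination. SPRY2 was most like ARHGAP32 (0.960), TSHZ1 (0.951) and CHD7 (0.932), and PHLDA1 was most like PDGFC (0.942), ZCCHC11 (0.934) and CD109 (0.925). CD109 averaged 27.2, 51.5, 39.0 and 51.0 CPM in that order. None of these 12 neighbours is shared between the 4 members, and SPRY2 and SPRED2 had r = 0.86 with each other.

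**Figure D4:**
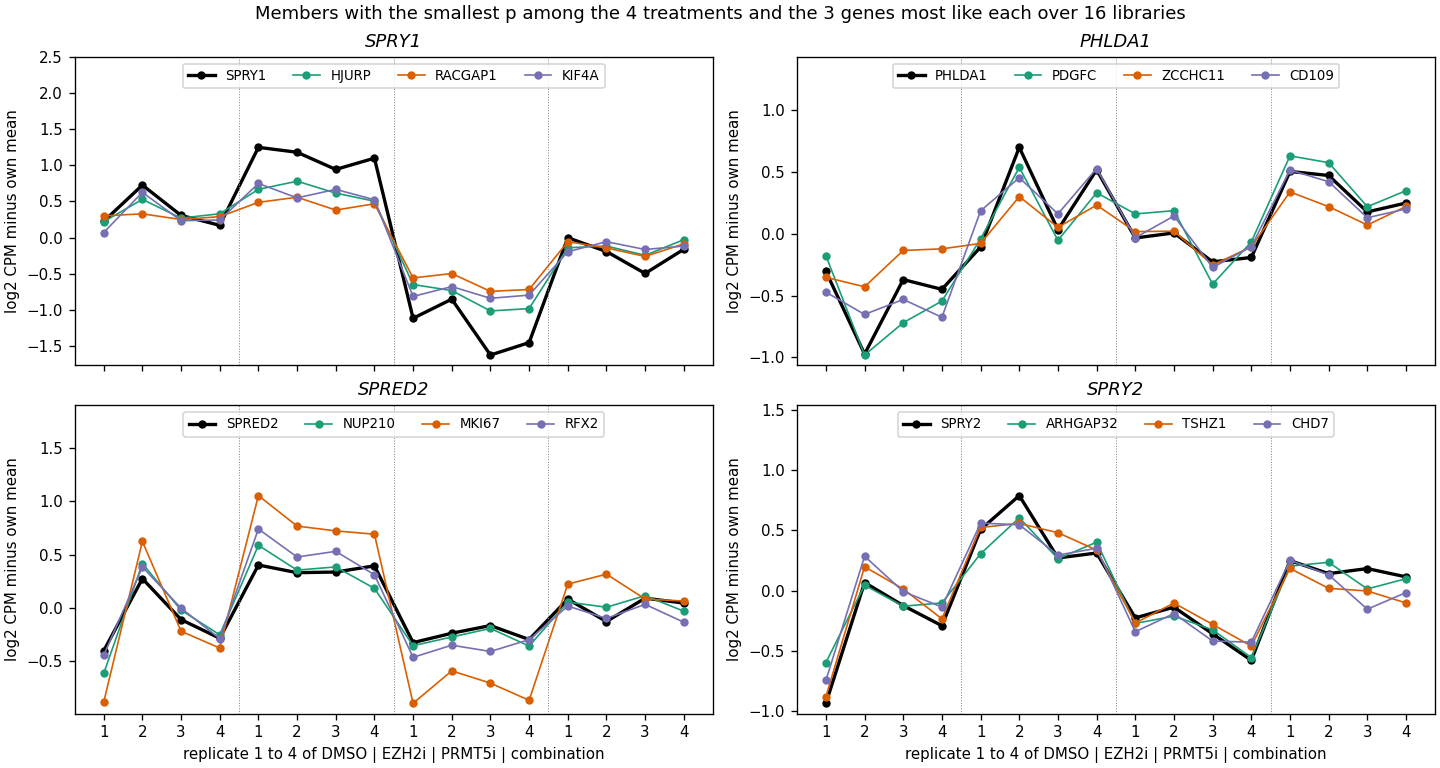
Log2 CPM minus each gene's own mean (y axes) over the 16 libraries in order of treatment and replicate (x axes) for SPRY1, PHLDA1, SPRED2 and SPRY2 (black) and the 3 genes most like each (colours). HJURP, RACGAP1 and KIF4A follow SPRY1 through all 4 treatments with r of 0.973 to 0.981, over a narrower range.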

How the data were processed

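Total RNA of 16 Molm13 libraries was sequenced as paired ends, per the labels' protocols. The authors deposited RSEM expected counts per gene, not scaled to depth, in 1 table; 12% of the values are not whole. Reads were aligned with STAR 2.5.3 to GRCh38.p7 and quantified by RSEM (per the submitters' processing notes). Annotation and strand setting are not given in the sources used here. Overlapping genes may therefore exchange reads. All 16 columns were used.

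Expected counts were rounded, filtered with filterByExpr by group and scaled by TMM. One edgeR 4.0.16 quasi-likelihood model (R 4.3.3) with 4 group means gave all fold changes, SE, 95% intervals and Benjamini-Hochberg adjusted p-values over 16555 genes. Log2 CPM used a prior count of 2. Gene positions, gene types, exon lengths and overlaps come from GENCODE v29 (GRCh38) and promoters from RefSeq (GRCh38.p14). The gene identifiers printed are those of the deposited counts. For SPRY2 and SPRY4 their versions differ from those of GENCODE v29. The fit was tested on simulated counts. Alternatives were total counts, RLE factors, DESeq2 1.42.0, no filter, a replicate block, a term for replicates 1 and 2 against 3 and 4, fits of only the groups compared, each library left out and, chosen after seeing the data, fits within replicates 1 and 2 or 3 and 4.

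The members, lists, motifs and markers were chosen with earlier results of these data known. One marker gene is not reported here. The text names all 10 members and, from the 4 pathway lists for each inhibitor against DMSO and for the combination against PRMT5i, up to 3 genes each with the smallest p among those called. For the 4 members with the smallest p over the treatments it names the 3 genes with the highest r.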

Additional observations from a re-analysis of the deposited data

How the results depend on the processing

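The number of members past the threshold depended on the fit. With EZH2i against DMSO it was 5, and 1 in the fit of these groups alone, 3 to 5 with each library left out and 0 within replicates 1 and 2, where 0 of all genes passed. With PRMT5i against DMSO it was 3, 2 to 4 with each library left out and 1 within replicates 1 and 2. In the combination against DMSO it was 6, 5 to 7 with each library left out, 3 with total counts and 0 within replicates 1 and 2. In the combination against PRMT5i it was 1, and 2 with total counts, 3 in DESeq2, 7 in the fit of these groups alone, 1 to 4 with each library left out, 0 within replicates 1 and 2 and 3 within replicates 3 and 4. In the combination against EZH2i it was 3, and 1 with no filter, 1 to 5 with each library left out (5 without DMSO replicate 1, 1 without combination replicate 2) and 1 within replicates 1 and 2. For PRMT5i against EZH2i it was 6, 4 to 7 with each library left out and 1 within replicates 1 and 2. The interaction had 0 members under every alternative. Apart from the smaller number of libraries or genes tested, the cause was not tested.

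Of 1737 values of single members under the alternatives, 1571 kept their direction and side of the threshold, 82 lost the call, 34 gained one and 50 changed sign, of which 0 were called in either fit. Outside the fits that leave out a library, these were SPRY4 with EZH2i (-0.02 with the replicate block, -0.04 with the term for replicates 1 and 2 against 3 and 4, -0.44 within replicates 3 and 4), SPRED1 with EZH2i (0.02 with total counts), ETV5 with EZH2i (0.08 with total counts, 0.01 within replicates 1 and 2), and SPRY2 and DUSP6 with PRMT5i (0.17 and -0.10 within replicates 1 and 2). In the combination they were SPRED1 (0.08 with total counts) and DUSP4 (-0.01 with the replicate block, -0.08 within replicates 3 and 4) against DMSO, ETV5 against PRMT5i (0.02 with total counts), and SPRED1 (-0.08) and PHLDA1 (-0.09) within replicates 3 and 4 and DUSP6 (-0.30) within replicates 1 and 2 against EZH2i. The interaction changed sign for SPRY2 (0.11) and DUSP6 (0.15) within replicates 3 and 4 and for SPRY4 (-0.06) within replicates 1 and 2. With each library left out, the values that crossed 0 ran from -0.27 to 0.25 (SPRY4) and -0.27 to 0.05 (SPRED1) with EZH2i, -0.21 to 0.09 (SPRY2) and -0.24 to 0.00 (SPRED2) with PRMT5i, -0.38 to 0.32 (DUSP4) and -0.24 to 0.05 (SPRED1) in the combination against DMSO, -0.06 to 0.16 (DUSP6), -0.09 to 0.19 (PHLDA1) and -0.12 to 0.16 (SPRED1) against EZH2i, and -0.09 to 0.04 (DUSP5), -0.15 to 0.09 (DUSP6) and -0.09 to 0.02 (ETV5) in the interaction.

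No clear pairing by replicate number was seen: deviations from group means of same-numbered libraries correlated at -0.272 to 0.236, and 5 of 16 libraries correlated best with their own number. These values are a description and do not show that pairing is absent. A term for replicates 1 and 2 against 3 and 4 raised the calls over all genes in each comparison, from 1259 to 1533 under EZH2i. With the replicate block the counts of members were 5, 4, 6, 1, 3, 6 and 0 for EZH2i, PRMT5i and the combination against DMSO, the combination against PRMT5i and EZH2i, PRMT5i against EZH2i and the interaction, and SPRY4 passed with PRMT5i. SPRY4 and DUSP4 had at most 59 and 29 counts per library. The counts of members that compare PRMT5i with another group include DUSP4 where it was called, which was tested only through its level under PRMT5i.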
